A study of Mus musculus with 21 samples.

Results

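The transcripts described here are 60 array probes whose mean score in intact mouse skin was above their mean in the bed of a skin wound on every sampled day. They were chosen by a rule on the authors' deposited table of scaled log scores, in which each array has a median of 1 and an SD of 0.2. Among the 1612 probes with a catalogue identifier, out of 1687 on the array, 777 had a mean score of at least 1.0 in intact skin. The intact mean minus the largest of the bed means of day 2, day 6 and day 15 was positive for 278 of these, and the 60 highest were taken. The intact and bed arrays therefore chose the members, and the edge arrays took no part. The score of the members, in units of that table, ran from 0.377 for rank 1 to 0.0853 for rank 60, and the first probe outside stood at 0.0847. The files do not pair these probes with genes, and none of the 60 identifiers matched the RefSeq gene table used here, so the members are given by identifier or by rank of the score, and no sequence, genome position or gene role can be given for them.

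The mice were females, 9 to 13 weeks old, of strain C57Bl/KS-db/+, in which 1 copy of the leptin receptor gene carries the db mutation. All 7 groups share this strain, so the intact skin is no wild-type control. A square of back skin of 1.5 by 1.5 cm was removed with the panniculus carnosus, the thin muscle sheet under mouse skin, and covered with a transparent dressing. Wound bed and wound edge, a 2 mm strip of skin bordering the wound, were taken at 2, 6 or 15 days, and shaved intact skin was the control. Each group had 3 arrays, 3 animals were used per time point, and it is not given whether bed and edge of a day were paired within animals. P-values measure only the spread between these samples. The markers of the skin's cell types could not be checked, since they are known by gene symbol.

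Intact skin holds an epidermis of keratinocytes, a dermis of fibroblasts and matrix, hair follicles with sebaceous glands, fat and the panniculus carnosus. Excision removes all of these layers at once. The bed is first filled by clot and inflammatory cells and then by granulation tissue, made of fibroblasts, new vessels and macrophages. Keratinocytes from the edge and from cut follicles migrate over it, whereas follicles and muscle are mostly not rebuilt in an adult scar. A whole-tissue array measures the mixture: fewer cells of a type and less RNA per cell cannot be told apart.

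Signals were background-corrected, averaged over the 8 spots of a probe as log2 values and quantile normalized, and all values below are on this log2 scale unless a fold is named. The arrays differed in quality. The ratio of signal to local background ran from 1.24 to 2.39, with the lowest 3 arrays being edge day 15 replicate 3, edge day 2 replicate 3 and intact replicate 2, and between 487 and 934 probes lay above the 95th percentile of an array's blank and empty spots. limma was run on the 974 probes above that level on 3 or more of the 21 arrays, and 58 of the members were among them. The members of rank 31 and rank 32 were not. Rank 31 was above the blank spots on no array and owed its place to intact replicate 1, with table scores of 1.42, 0.951 and 0.953 on the 3 intact arrays, against a largest bed mean of 0.984. On the log2 scale, unlike in the table, 2, 1 and 2 members had a bed mean above the intact mean at days 2, 6 and 15. At least 1 intact array also lay below the largest bed mean for the members of rank 32, 39, 41 and 51.

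Bed day 15 replicate 1 stood apart from its group. Over the tested probes outside the 60, its mean correlation with the bed arrays of day 2 was 0.891, and with the other bed arrays of day 15 it was 0.818. It lay nearer to the day 2 mean than to the other day 15 arrays in 43 of the 60 members (71.7%) and in 611 of the 974 tested probes (62.7%). It was scanned on the same day as the first bed replicate of the other days, and the other day 15 bed arrays on a later day with the other bed replicates. Within the day 15 bed, the array and the scan day therefore cannot be told apart. Bed day 6 replicate 1, of the same scan day, had a mean correlation of 0.813 with the day 2 bed arrays and 0.852 with its own group. The cause was not tested. Day 15 results of the bed are given with and without it.

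**Figure D1:**
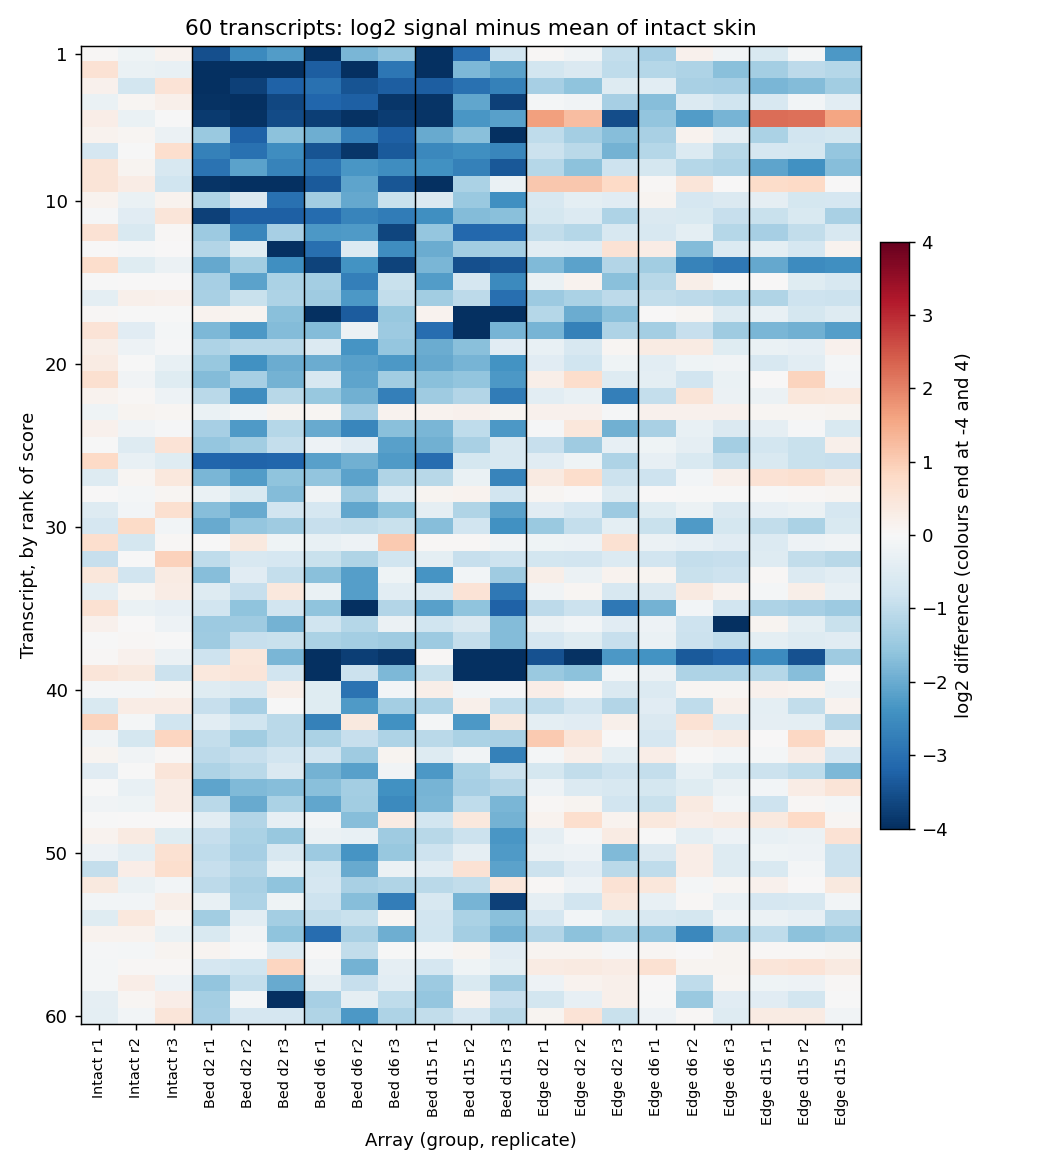
Log2 signal of each of the 60 transcripts (rows, by rank of score) on each of the 21 arrays (columns, by group and replicate) minus its mean in intact skin, with blue below and red above intact. The bed columns are mostly blue, the edge columns paler, and bed day 15 replicate 1 looks unlike replicates 2 and 3 in several rows.

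The size of the loss is a description, because it chose the members. The median difference of the 60 from intact skin was -1.31 on bed replicate 1, -1.30 on replicate 2 and -1.33 on replicate 3 at day 2. It was -1.44, -2.02 and -1.44 at day 6, and -1.45, -1.23 and -1.88 at day 15. All tested probes together had medians between -0.12 and 0.116 on the 18 wound arrays. At an adjusted p under 0.05 (limma, Benjamini-Hochberg over the 974 probes), 23 members were called lower in the bed at day 2 (4.21% of all tested probes were), 35 at day 6 (9.96%) and 33 at day 15 (6.47%). Nothing is read from these counts. Without intact replicate 3 the day 6 count was 23, and the day 15 count was 19, 17 and 17 without intact replicates 1, 2 and 3 and 20 and 26 without bed day 15 replicates 3 and 1. Blocking on scan day gave 15, 20 and 17.

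Lost did not mean undetectable for most members. In intact skin 54 of the 60 were above the blank spots on all 3 arrays and 1 on none. In the bed 40 were still above them on all 3 arrays at day 2, 29 at day 6 and 34 at day 15, and 14, 15 and 10 were above them on no array. In the edge 43, 51 and 52 were above them on all 3 arrays. The number of all probes above the blank spots varied too. It was 832, 756 and 882 on the day 2 bed arrays, 775, 547 and 487 at day 6, and 934, 689 and 708 at day 15. On the day 2 edge arrays it was 792, 840 and 544. Differences of the member counts between days or tissues are therefore not read as a result. Depth of loss went with brightness among the members, which is a description, since the rule used both the intact and the bed means. The 15 members with an intact mean under 11 had a median of -1.72 in the day 15 bed. The 21 between 11 and 13 had -1.47, and the 24 at 13 or more had -1.17. Of that brightest class 10 had a spot at 65000 or more, near the scanner's ceiling, on some array, which can hide part of a difference.

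**Figure D2:**
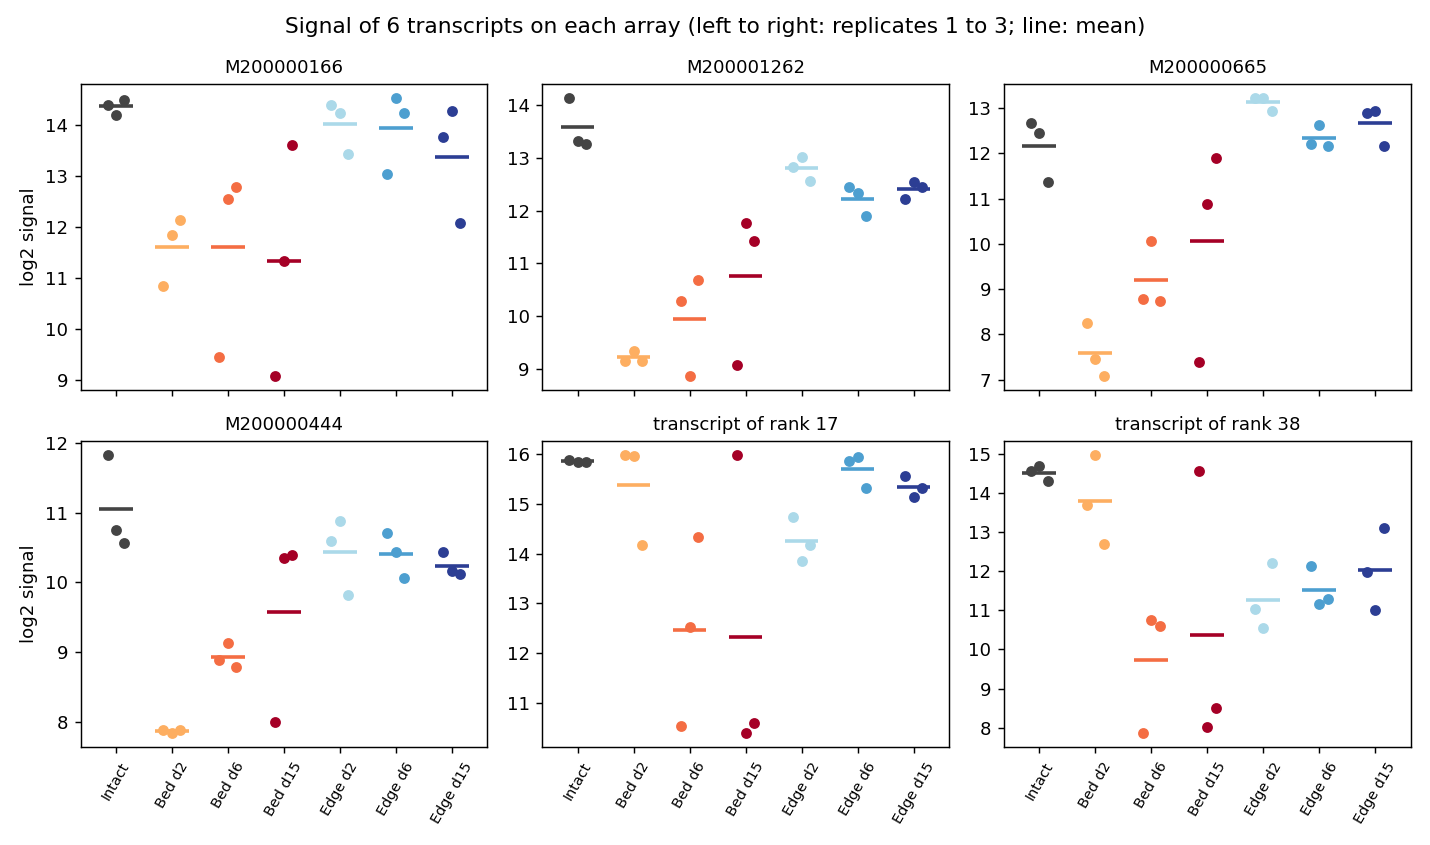
Log2 normalised signal of 6 transcripts on every array, by group, each point 1 array. M200001262, M200000665 and M200000444 are low in the day 2 bed and higher on replicates 2 and 3 of day 15. In these transcripts the edge arrays lie nearer to the intact mean than to the day 2 bed mean. All edge arrays of M200001262 still lie below its intact arrays.

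The member with the highest score, M200000166, read 14.41, 14.21 and 14.51 on intact replicates 1 to 3. In the bed it read 10.85, 11.84 and 12.14 at day 2, 9.45, 12.56 and 12.79 at day 6, and 9.07, 11.33 and 13.62 at day 15. In the edge it read 14.41, 14.25 and 13.43, then 13.04, 14.55 and 14.25, then 13.77, 14.29 and 12.08. Every bed array lay below every intact array, while within the bed the arrays of day 15 were as far apart as 9.07 and 13.62, and at that day the highest bed array lay above the lowest edge array. The bed was not called lower than the edge on any day (limma, adjusted p = 0.108, 0.0774 and 0.168). Blocking on scan day, it was called on all 3 days (limma, adjusted p = 0.00627, 0.0133 and 0.0254).

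M200001262, the second by score, was tighter. It read 14.14, 13.32 and 13.27 in intact skin. The bed read 9.16, 9.35 and 9.15 at day 2, 10.28, 8.87 and 10.68 at day 6, and 9.08, 11.77 and 11.43 at day 15. The edge read 12.83, 13.01 and 12.56 at day 2, 12.44, 12.33 and 11.89 at day 6, and 12.22, 12.54 and 12.45 at day 15. The 3 tissues did not overlap on any day, with the edge between the other two. Bed minus edge was -3.58 ± 0.53 (SE) at day 2 (limma, adjusted p = 0.000155) and -2.28 at day 6 (limma, adjusted p = 0.0102), and -1.64 at day 15 missed the threshold (limma, adjusted p = 0.0595). Blocking on scan day, the day 6 difference missed it too (limma, adjusted p = 0.0537). The edge was not called lower than intact skin (limma, adjusted p = 0.713, 0.315 and 0.413).

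Whether the edge keeps the transcripts was asked first against intact skin. The edge means were lower than the intact mean in 48 of the 60 at day 2, 52 at day 6 and 44 at day 15, below it on all 3 days in 39 and above it on all 3 days in 6. The median differences were -0.48, -0.45 and -0.41, and those of all tested probes were -0.02, -0.00039 and -0.02. Members were picked for high intact readings, which by itself puts other arrays below them, so this lean toward lower values is a description. Within scan day 1 the median differences were -0.355, -0.418 and -0.348, and within scan day 2 they were -0.716, -0.494 and -0.485.

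Few single members passed the test. None was called lower in the edge at day 2 (0.103% of all tested probes were), 2 were at day 6 (0.308%) and 4 at day 15 (0.513%), by limma at an adjusted p under 0.05. At an unadjusted p under 0.05 the counts were 12, 15 and 11, and 4.21%, 4.62% and 4.93% of all tested probes were. No member was called higher in the edge, where 0.308%, 1.13% and 1.33% of all tested probes were. The smallest difference called among all tested probes, in either direction, was 1.944 at day 2, 1.075 at day 6 and 1.655 at day 15. Few calls therefore do not show that the edge kept the transcripts. The day 6 count fell to 0 or 1 without any 1 of its 6 arrays, and the day 15 count to 1 or 2 without intact replicate 1, intact replicate 3 or any day 15 edge array. Blocking on scan day gave 1 and 2, and fitted on the compared groups alone they were 4 and 7.

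The member of rank 14 was the one called on both of those days. It read 11.17, 9.96 and 10.23 in intact skin, and in the edge 8.70, 8.31 and 9.26 at day 2, 9.08, 7.79 and 7.60 at day 6, and 8.39, 7.94 and 8.0 at day 15. No edge array reached the lowest intact one. The edge was lower by -2.30 ± 0.51 (SE) at day 6, with only 1 edge array above its blank spots (limma, adjusted p = 0.0196). At day 15, with no edge array above its blank spots, it was at least 2.47-fold lower (limma, adjusted p = 0.0124). Such bounds compare the mean of the brighter group with the lowest level above the blank spots in the dimmer. In the bed it read 8.40, 9.05 and 7.99 at day 2, so edge and bed overlapped for this member.

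The other calls in the edge were single days. The member of rank 8 read 10.73, 10.32 and 9.55 in intact skin and 8.09, 7.76 and 8.51 in the edge at day 15, at least 2.08-fold lower (limma, adjusted p = 0.00177). Rank 18 read 14.02, 13.02 and 13.40 against 11.64, 11.55 and 11.29 at day 15, a difference of -1.99 ± 0.50 (SE) (limma, adjusted p = 0.0419). Rank 55 read 12.59, 12.58 and 12.18 against 10.89, 9.87 and 10.99 at day 6 (limma, adjusted p = 0.0362). In each of these the 3 edge arrays lay below the 3 intact ones. Rank 3 was the fourth member called at day 15 (limma, adjusted p = 0.0255). Blocking on scan day left ranks 8 and 14 called among them.

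**Figure D3:**
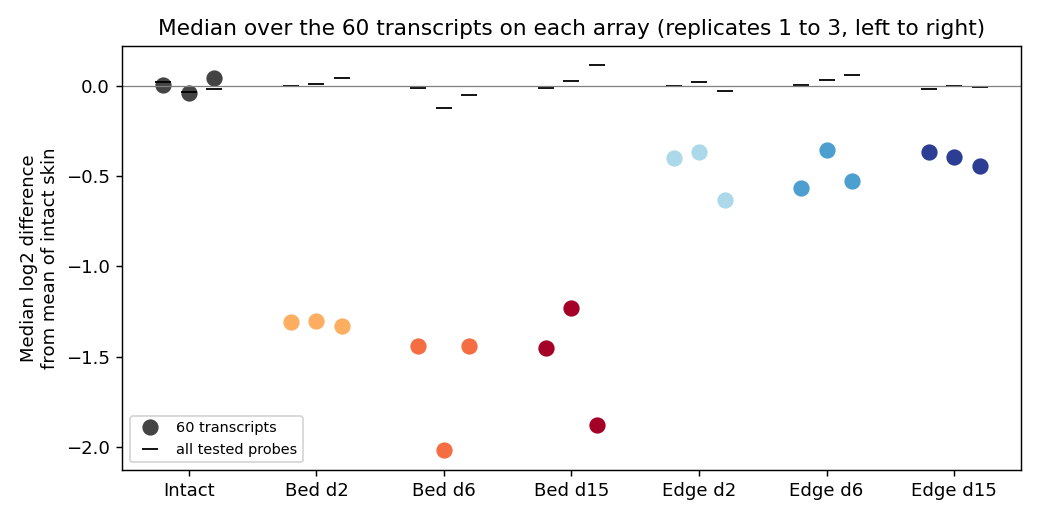
Median log2 difference from the intact mean over the 60 transcripts on each array (points) and over all tested probes (dashes), replicates 1 to 3 from left to right in each group. The 9 edge arrays lie between -0.352 and -0.629 and the 9 bed arrays between -1.23 and -2.02, without overlap. The 60 were picked for low bed and high intact means, so this gap is a description.

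Against the bed of the same day, the edge was higher in most members. Here the edge arrays were independent of the rule and the bed arrays were not, since members were picked for low bed means. Bed means were below edge means in 52, 56 and 55 of the 60 at days 2, 6 and 15, with medians of -0.81, -1.16 and -1.02. By limma at an adjusted p under 0.05, 16 members were lower in the bed at day 2 (5.03% of all tested probes were), 19 at day 6 (8.32%) and 14 at day 15 (4.31%). No member was called higher in the bed, where 3.9%, 8.01% and 3.9% of all tested probes were. Calls on all 3 days were made for 6 members (ranks 3, 4, 7, 9, 20 and 46) (1.03% of all tested probes), and on at least 1 day for 26 (11.6%). For ranks 7, 20 and 46 no bed array was above its blank spots on any day. Their folds are at least 1.509, 1.376 and 0.964 at day 2, and 1.105, 0.933 and 0.557 at day 6. At day 15 they are at least 1.665, 1.306 and 1.412. Ranks 8 and 47, called at day 6, had bounds of 0.687 and 0.679. A bound under 1 does not show a lower bed.

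The number of calls moved with the arrays and with the scan day. Bed replicates 2 and 3 had a scan day to themselves, and blocking on scan day gave counts of 10, 8 and 5. On scan day 2, which held a single array of each wound group, the bed was lower in 44, 56 and 43 of the 60, and the median differences were -0.675, -0.855 and -1.02. The day 6 count was 11 without bed replicate 2 and 9 without edge replicate 2. The day 15 count was 6, 5 and 7 without edge replicates 1, 2 and 3, and 16 without bed replicate 1.

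M200000665, rank 9, showed the widest gap between bed and edge at day 2. It read 12.66, 12.44 and 11.37 in intact skin and 8.24, 7.45 and 7.08 in the day 2 bed, with no array above its blank spots. The day 2 edge read 13.23, 13.23 and 12.94, above all intact arrays. The bed was at least 18.4-fold lower than the edge (limma, adjusted p = 6.54e-05). At day 6 the bed read 8.79, 10.06 and 8.74 and the edge 12.21, 12.63 and 12.16, a difference of -3.14 with 1 bed array above its blank spots (limma, adjusted p = 0.0102). At day 15 the bed read 7.40, 10.88 and 11.90 and the edge 12.90, 12.94 and 12.16, a difference of -2.61 with 2 bed arrays above them (limma, adjusted p = 0.0328), which no longer passed when scan day was blocked (limma, adjusted p = 0.0649).

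The edge arrays of the member of rank 5 were far apart. It read 11.51, 10.97 and 11.22 in intact skin, and 12.87, 12.46 and 7.70 in the day 2 edge. The edge then read 9.65, 8.98 and 9.38 at day 6 and 13.46, 13.43 and 12.81 at day 15. The third day 2 edge array, one of the 3 dim ones, lay at the level of the day 2 bed (7.40, 7.29 and 7.67), while the day 15 edge lay above every intact array. At day 15 the bed (7.32, 8.89 and 9.06) was at least 17.5-fold lower than the edge (limma, adjusted p = 0.00113), and the edge was not called higher than intact skin (difference 2.00, limma, adjusted p = 0.335).

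To place the edge between the tissues, its distance from the bed was divided by the distance of intact skin from the bed, so that 0 is the bed and 1 intact skin. Members were picked for high intact and low bed means, which by itself tends to put other arrays between them. The share is therefore a description, and it was not computed for all tested probes. The median share over the 60 members was 0.706 ± 0.109 (SD over 3 edge arrays) at day 2, 0.721 ± 0.0842 at day 6 and 0.669 ± 0.0277 at day 15. Taken singly, the 3 day 15 edge arrays gave 0.739, 0.714 and 0.684, all above 0.669. The SD leaves out the spread of the intact and bed arrays. Without intact replicate 3 the day 15 share was 0.778, and without bed day 15 replicate 3 it was 0.636. The ratio has no clear meaning where bed and intact skin lie close together, so members are counted only where the bed mean was at least 0.5 below the intact mean, which held for 52, 56 and 54. The middle 50% of these lay between 0.334 and 0.879 at day 2, between 0.549 and 0.886 at day 6, and between 0.455 and 0.89 at day 15. The share was above 0.5 in 34, 43 and 38 of them, above 1, with the edge above intact skin, in 8, 5 and 11, and below 0 in 6, 3 and 2. The days differed by less than the spread of the day 2 arrays, and without bed day 15 replicate 1 the day 15 share was 0.695.

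Change of the edge over time is the comparison that no array of the rule entered. From day 2 to day 6, limma called none of the 58 tested members at an adjusted p under 0.05, with 0.616% of all tested probes called, and 1 member had an unadjusted p under 0.05 (5.24% of all tested probes had). From day 2 to day 15 it again called none, with 0.411% of all tested probes called, and 4 had an unadjusted p under 0.05 (3.7%). The smallest adjusted p of a member was 0.952 and 0.799. The median changes were 0.02 and 0.04, against 0.0061 and -0.01 over all tested probes. Without edge day 2 replicate 3 the first count was 1. The smallest change called among all tested probes was 1.52 in the first and 1.66 in the second comparison.

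**Figure D4:**
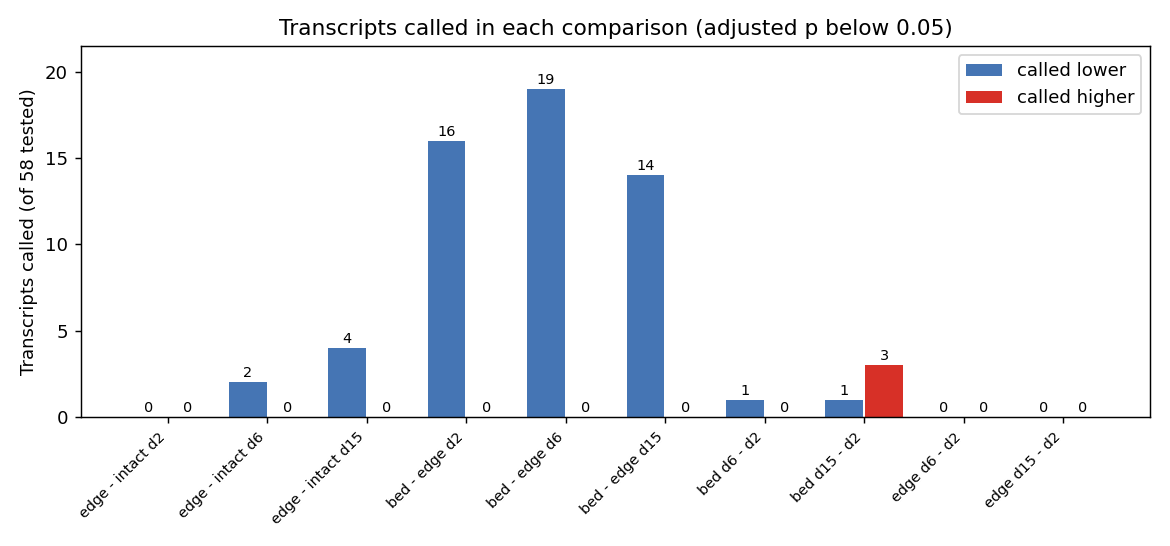
Number of the 58 tested transcripts called lower or higher at an adjusted p under 0.05 in each comparison other than bed against intact skin. All but the edge over time include intact or bed arrays, which the rule used. The bed was below the edge in 16, 19 and 14 (5.03%, 8.32% and 4.31% of all tested probes were). Some of these members had no bed array above the blank spots. The edge was below intact skin in 0, 2 and 4 (0.103%, 0.308% and 0.513%). Counts of the edge over time were 0 (0.616% and 0.411%).

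How far the bed returned by day 15 was measured as the rise from the day 2 mean divided by the day 2 distance from intact skin, with 0 for no return and 1 for a full one. The rule kept every bed mean of the deposited scores below intact skin, so this is a description. The median return was -0.07 ± 0.187 (SD over 3 bed arrays) at day 6 and -0.05 ± 0.271 at day 15. The 3 day 15 arrays gave medians of 0.0467, 0.253 and -0.285. Without replicate 1 the day 15 median was -0.038. The median thus lay within the spread of its arrays around 0, and its sign turned without bed day 15 replicate 3 (0.151) or bed day 2 replicate 3 (0.036). Over the 52 members with a day 2 distance of at least 0.5, the middle 50% of day 15 returns lay between -0.214 and 0.205. Among these a return above 0.5 was seen in 5 and above 1 in 0, while 28 lay below 0. Within scan day 2 the median log2 change from day 2 to day 15 was -0.0343, and within scan day 3 it was -0.0567.

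limma found no member risen in the bed from day 2 to day 6 (2.57% of all tested probes were; 3 members and 11.1% had an unadjusted p under 0.05), and 1, of rank 38, was called lower (3.9% were; limma, adjusted p = 0.0435). At day 15 limma called 3 members higher than at day 2 (3.18% of all tested probes were) and 1, of rank 39, lower (3.49%; limma, adjusted p = 0.0289). The rule used the bed means of all days and kept each, in the deposited scores, below intact skin, so these calls are a description. The risers were ranks 9, 11 and 26. Their number was 0 without bed day 2 replicate 1 or without bed day 15 replicate 2 or 3, 1 without bed day 2 replicate 2 or 3, and 4 without bed day 15 replicate 1. It was 0 on the deposited scores and 0 without background correction.

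M200000665 and M200000444 were named for the largest bed rises among the tested members, so the size of their rise is a description. M200000665 rose in the bed from 8.24, 7.45 and 7.08 at day 2 to 7.40, 10.88 and 11.90 at day 15, at least 2.18-fold (limma, adjusted p = 0.0468). Replicate 1 lay inside the day 2 range and the other replicates far above it. Within scan day 2 the change was -0.842, and within scan day 3 it was 4.12. M200000444, rank 26, read 11.83, 10.75 and 10.56 in intact skin. In the bed it read 7.88, 7.84 and 7.89 at day 2, 8.89, 9.13 and 8.78 at day 6, and 8.0, 10.35 and 10.40 at day 15, a rise of at least 1.56-fold (limma, adjusted p = 0.0410). Its change was 0.117 within scan day 2 and 2.51 within scan day 3. Its edge read 10.59, 10.88 and 9.83 at day 2, 10.71, 10.44 and 10.07 at day 6, and 10.44, 10.16 and 10.12 at day 15, so replicates 2 and 3 of the day 15 bed had reached the edge level.

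Rank 11 rose on all 3 arrays. It read 10.60, 10.18 and 11.12 in intact skin, 6.89, 7.38 and 7.36 in the day 2 bed, and 8.18, 8.90 and 8.95 in the day 15 bed, with no overlap. The change was similar within scan day 2 (1.29) and scan day 3 (1.55). The test passed (limma, adjusted p = 0.00925), but every bed array was below the blank spots' limit on both days, so no fold is given.

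**Figure D5:**
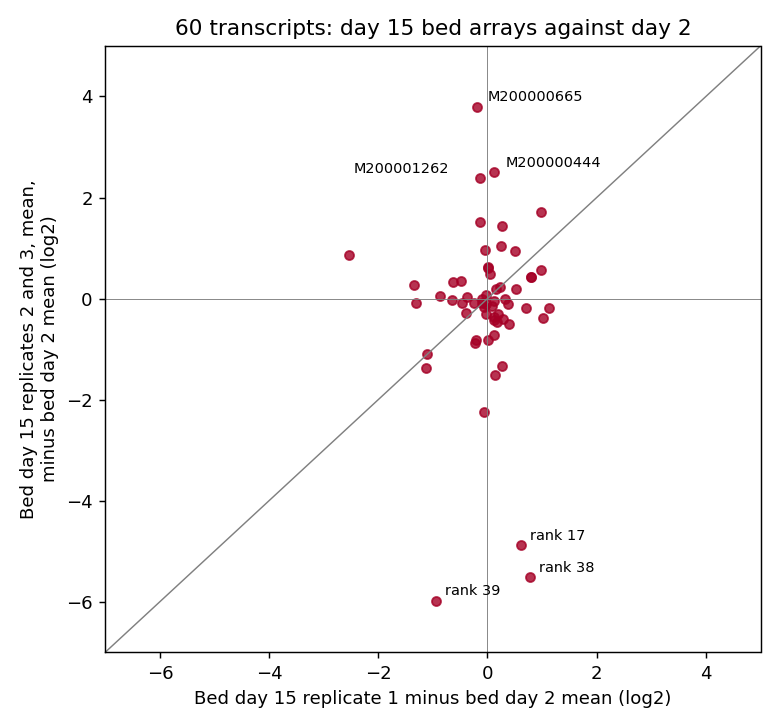
Change of each of the 60 transcripts in the day 15 bed from the day 2 mean (log2), replicate 1 on the horizontal axis and the mean of replicates 2 and 3 on the vertical axis, with the line of equal change. M200000665, M200000444 and M200001262 lie high and ranks 17, 38 and 39 low on the vertical axis, while all 6 lie within 1 of 0 on the horizontal axis.

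Without bed day 15 replicate 1, limma at an adjusted p under 0.05 called 4 of the 58 members higher at day 15 than at day 2 (5.34% of all tested probes were) and 4 lower (7.6%), shares near those of all tested probes. That array was set apart for resembling day 2, so leaving it out by itself favours a difference from day 2. The rule had also used the bed means of both days, so these calls are a description. M200000665 rose at least 5.48-fold (limma, adjusted p = 1.64e-05) and M200000444 at least 2.71-fold (limma, adjusted p = 0.000113), each with no day 2 array above its blank spots. M200001262, above them on every array of both days, rose by 2.38 ± 0.42 (SE) (limma, adjusted p = 0.000581). Rank 11 was called too (limma, adjusted p = 0.0015), again with no fold, as it was below the limit on all these arrays. Ranks 17, 38, 39 and 53 fell, the last by -2.24 ± 0.55 (SE) (limma, adjusted p = 0.00815).

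None of ranks 17, 38, 39 and 53 was called lower than intact skin in the day 2 bed (limma, adjusted p = 0.828, 0.774, 0.986 and 0.649). A later loss in them is a description, since the rule used the bed means of all days. With all arrays the fall from day 2 to day 15 was not called for ranks 17, 38 and 53 (limma, adjusted p = 0.084, 0.0843 and 0.123). Rank 17 read 15.89, 15.84 and 15.84 in intact skin and 15.99, 15.97 and 14.18 in the day 2 bed, where it overlapped intact skin near the scanner's ceiling. It read 10.53, 12.52 and 14.33 at day 6 and 15.99, 10.39 and 10.60 at day 15. Replicate 1 of day 15 was at the intact level and the other replicates more than 5 below it, a fall from day 2 of -4.89 ± 0.71 (SE) without replicate 1 (limma, adjusted p = 7.33e-05). Its edge stayed between 13.86 and 15.94 on the 9 edge arrays.

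Rank 38 read 14.55, 14.69 and 14.29 in intact skin, 13.69, 14.97 and 12.68 in the day 2 bed, 7.86, 10.74 and 10.61 at day 6, and 14.55, 8.01 and 8.51 at day 15. Rank 39 read 15.99, 15.89 and 14.65 in intact skin, 15.93, 15.99 and 14.73 in the day 2 bed, 9.82, 14.65 and 13.71 at day 6, and 14.61, 9.46 and 9.68 at day 15. In both, replicate 1 of day 15 lay with the day 2 arrays and replicates 2 and 3 far below. Without replicate 1, rank 38 was above the blank spots on neither day 15 array and was at least 21.6-fold lower than at day 2 (limma, adjusted p = 5.42e-05), and rank 39 fell by -5.98 ± 0.94 (SE) (limma, adjusted p = 0.00018). Ranks 17 and 39 had a median spot at 65000 or more on 2 of the 3 day 2 bed arrays, so their day 2 level is partly capped and their falls are measured from a capped level. Rank 17 also had one on 2 intact arrays and 1 day 15 bed array, and rank 39 on 1 of each. A difference of their day 2 bed from intact skin can therefore be partly hidden. The edge of rank 38 lay between 10.55 and 13.09, below every intact array and, at day 2, below every bed array.

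Whether the change from day 2 to day 15 differed between bed and edge was tested directly. The edge arrays took no part in the rule, but the bed arrays did. With all arrays limma called no member at an adjusted p under 0.05 (0.616% of all tested probes were), the smallest adjusted p was 0.126, and 8 members had an unadjusted p under 0.05 (10.7% of all tested probes had). Without bed day 15 replicate 1 it called 7 members (5.13% of all tested probes): M200000665, M200001262, M200000444 and rank 11 rose more in the bed than in the edge, and ranks 17, 38 and 39 fell more. The difference of the changes was 2.78 for M200001262 (limma, adjusted p = 0.00491). It was -5.97 for rank 17 (limma, adjusted p = 0.000539) and -6.10 for rank 39 (limma, adjusted p = 0.00496), both from the capped day 2 level. For M200000665, M200000444, rank 11 and rank 38 a bed group lay below the blank spots, so only the call is given (limma, adjusted p = 0.000539, 0.00217, 0.0215 and 0.000628). Without that array the day 15 bed comes from scan day 3 alone, on which no edge array was scanned. It was left out for resembling day 2, which by itself favours a change in the bed, so these calls are a description.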

How the data were processed

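The authors deposited scanner output of 21 arrays of 1 colour (Cy3), with spot intensity on a linear scale, and a flag of 0 to 3 as another value whose meaning is not given in the sources used here. Per the file headers, spots were quantified at 532 nm with image software of version 4.1. The authors also deposited the table of scaled log scores that chose the members. Rebuilt from the scanner output, it is the log of the mean spot signal without flag 1, scaled within each array, with no background subtraction. Intensities were corrected here with normexp (limma 3.58.1, R 4.3.3, offset 50), averaged as log2 over spots without flag 1 and quantile normalized, which hides a shift of most transcripts. limma fitted 7 group means to all arrays (14 residual degrees of freedom) for 14 comparisons, with two-sided p-values adjusted over 974 probes within each. The number of arrays limits the precision. The fit was tested on simulated data. Same-numbered arrays did not deviate together (median correlation -0.0264, 63 pairs), so numbers were not taken as pairs. Members and lists were chosen with earlier results of these data known. Identifiers are printed for the 2 highest scores and the 2 largest bed rises from day 2 to day 15 among the tested members; other members are given by rank. Some members cited by rank were chosen after their values were seen. Lists of marker symbols could not be used, as the files hold no symbols. Alternatives were other scalings, the deposited scores, filters, blocks of scan day or replicate number, and single arrays left out.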

Additional observations from a re-analysis of the deposited data

How the results depend on the processing

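With scan day as a block, the members lower in bed than intact numbered 15, 20 and 17 (days 2, 6, 15), in edge than intact 1 (day 6) and 2 (day 15), and in bed than edge 10, 8 and 5. The replicate block gave 1 lower in edge at day 6 and 1 riser in the bed at day 15, and moved no other count by over 1.5 times. Only the arrays of the compared groups gave 15 lower in bed than intact at day 15, 1, 4 and 7 in edge, 12 (day 6) and 7 (day 15) in bed than edge, and 0 risers at day 15. Scaling to the 75th percentile gave 1 (day 6) and 2 (day 15) lower in edge, a median return of 0.006 at day 6, which turned its sign, and a share kept of 0.72 at day 15. Scaling to the median, which moved the median of all tested probes in bed against intact by -0.129, gave 1 and 1 lower in edge and shares of 0.813 (day 6) and 0.808 (day 15). The deposited scores gave 0 risers at day 15 and a share of 0.727; no background correction gave 0 risers, and no filter on dim probes 1. Leaving out 1 array at a time, members lower in bed than intact numbered 16 to 20, 23 to 33 and 17 to 29 (days 2, 6, 15), in edge than intact 0 to 0, 0 to 1 and 1 to 3, and in bed than edge 11 to 17, 9 to 20 and 5 to 20. Risers at day 15 numbered 0 to 4, members changed in edge from day 2 to day 6 0 to 1, and members whose change differed between bed and edge 0 to 7. The return at day 15 ran from -0.138 to 0.151, turning its sign without bed day 2 replicate 3 (0.036) or bed day 15 replicate 3, and the share kept from 0.69 to 0.779 at day 6 and 0.636 to 0.778 at day 15. The cause of these moves was not tested. Over members with at least 0.5 between intact and bed, an alternative chosen after seeing the data, returns were -0.011 and -0.064 and shares 0.706, 0.698 and 0.669. The rule picked 40 of the 60 again on log2 scanner values and 43 to 59 without 1 array (43 without intact replicate 2). Dim arrays limit what falls are measurable, since members below the blank spots have only bounds.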
